A study of Schizosaccharomyces pombe with 10 samples.

Results

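The genes described here lie near the ends of chromosomes I and II of the fission yeast Schizosaccharomyces pombe, and were chosen by the sequencing clone in their systematic identifier. Identifiers on 15 clones numbered 157, of which 12 were dropped by name, leaving 145 members of the 7017 features in the tables. All 145 were matched in the annotation of assembly ASM294v3, as 132 protein-coding genes and 13 pseudogenes. In the order of protein-coding genes and pseudogenes from each end, 46 members lay on the left end of chromosome I, 37 on its right end, 34 on the left end of chromosome II and 28 on its right end. Of these, 143 lay no farther inward than feature 58. The exceptions to the label are SPBPB7E8.01 and SPBPB7E8.02, at features 430 and 429 from the right end of chromosome II, which that annotation does not place near the end. Chromosome III held no member. The order was taken from an assembly other than the authors' ASM294v2, and no coordinates or sequences are given.

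Subtelomeres of chromosomes I and II in this yeast carry repeated blocks of sequence next to the telomere, with RecQ-type helicase genes outermost. Heterochromatin, made by the histone methyltransferase Clr4 and bound by the HP1 protein Swi6, covers the region nearest the telomere and keeps many of its genes at low levels during growth. Genes farther in, among them many for transporters and for enzymes that use unusual nutrients, are often expressed little in rich conditions and more under starvation or stress.

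RNA sequencing compared 5 control cultures, wild type with a vector, with 5 cultures of the wild type that overexpressed bag101, a BAG-domain co-chaperone gene of Hsp70. All were grown at 29 °C in EMM2, a minimal medium, and the design text describes the 5 samples a group as independent repeats. The sources used here name neither the promoter nor the time of overexpression. Bag101 itself had 0 reads in each of the 10 libraries, and 100% of it is overlapped by other counted genes, so its level gave no check of the labels. Control libraries held 5.54 to 11.8 M gene reads and overexpression libraries 10.2 to 10.9 M. Reads that overlapped more than 1 gene made up 10.9% to 13.1% of listed reads in controls and 13.7% to 16.3% in overexpression libraries, and the part of this difference in any member's values was not tested. Levels are CPM, read counts scaled by TMM-adjusted library size, and 3 reads, the limit that a count of 0 allows, equal 0.224 to 0.483 CPM. Such limits cover counting error only. In these bulk samples, fewer cells that express a gene and less RNA per cell cannot be told apart.

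Members moved in both directions, and tested members more often moved by a large amount than tested genes in general. Of the 145 members, 70 had enough reads to be tested (48.3%), 49 had too few and 26 were at 0 in every library. With edgeR's quasi-likelihood test at an adjusted p below 0.05 over 4681 genes, 27 of the 70 rose (38.6%), beside 40.4% of all tested genes. A further 37 fell (52.9%), beside 43.2%, and 6 did not pass. The share that passed in either direction, 91.4%, stood beside 83.6% of all tested genes. A log2 fold change beyond 2, which is 4-fold, was reached by 38 of the 70 members (54.3%), 19 in each direction, beside 9.61% of all tested genes, 6.39% higher and 3.23% lower. The median size of the log2 fold change was 2.18 in tested members, also with SPBPB21E7.05, at 0 in controls, set to its lower bound, and 0.665 in the 4611 other tested genes. The groups did not overlap in 60 of the 70 members (85.7%), beside 74.6% of all tested genes. No test was made of these differences between members and other genes. Below, levels are mean ± SD over 5 libraries, log2 fold changes are given ± SE, and members said to rise or fall passed edgeR's test, with adjusted p of at most 0.0404 and, for the 27 that were beyond 2 with a mean of at least 5 CPM, at most 1.77e-05. Changes are relative to the TMM scale, on which the median change of all 4681 genes was -0.03 (log2). The 6 that did not pass were say1, SPBPB21E7.09, the pseudogenes SPAC212.07c and SPAC977.13c, and the uncharacterized SPAC11D3.19 and SPAC11D3.16c, with log2 values from -0.16 to 0.52. SPAC212.07c passed, as higher, with RLE scaling, with the replicate number as a block and among genes without overlap, at 0.56, 0.54 and 0.58. It also passed without control replicate 4 or overexpression replicate 1 or 2, at 0.67, 0.66 and 0.57. SPAC977.13c turned to 0.055 without control replicate 4.

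**Figure D1:**
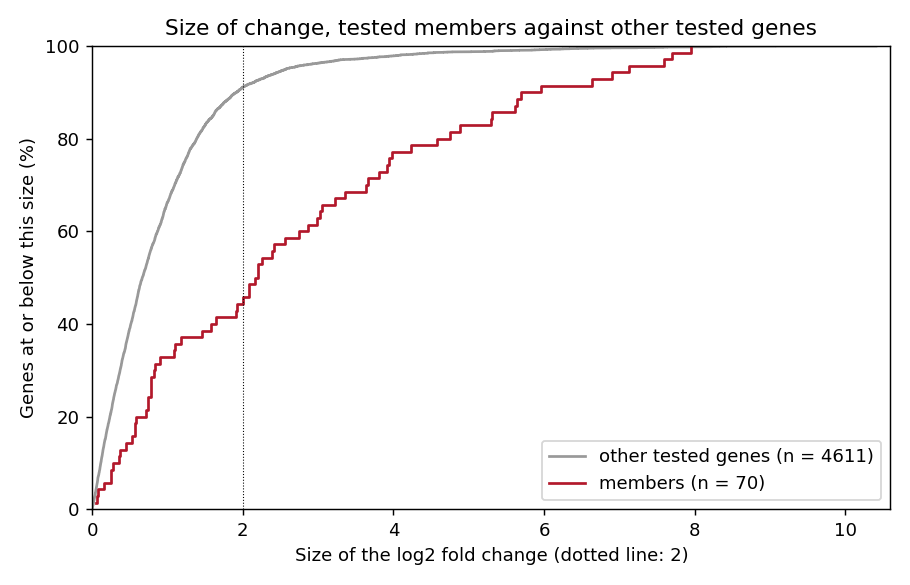
Cumulative share of genes (y axis, %) at or below each size of the log2 fold change (x axis) for the 70 tested members and the 4611 other tested genes; the dotted line marks a size of 2. The line of the members lies to the right: 54.3% of them were beyond 2, beside 9.61% of all tested genes.

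Members with few reads in both groups were not tested, and a member low in 1 group could pass the read filter only by being high in the other, so these shares describe the tested members alone. When a mean of 10 CPM or more was asked of every gene, which has the same property, 23 of 43 members (53.5%) were beyond 2, beside 8.29% of 4054 genes. By the control level, which is itself part of the fold change, 45 members had a control mean of at least 5 CPM, of which 12 rose (26.7%) and 30 fell (66.7%), beside 39.8% and 45.1% of the 4196 features at that level. Below it, 25 of 100 members were tested, 15 rose and 7 fell, beside 45.4% higher and 26.2% lower of 485 tested features. Members near 0 in controls could pass the read filter only through high overexpression values. Conversely, members near 0 with overexpression, such as the gene pfl9 (3.72 CPM in controls, 0.127 CPM with overexpression), could pass only through their controls. No test of the differences between these shares was made. In the summed level of all members, 3403 ± 64.4 CPM in controls stood against 6435 ± 453 CPM in overexpression libraries (SD, n = 5 each). The higher sum rested on SPAC11D3.01c, without which the sums were 3385 ± 65.2 and 2595 ± 209 CPM.

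The outermost genes are near-identical copies of each other, which limits what these tables hold on them. A 50-base window of gene sequence was called unique when it was found at only 1 place in the ASM294v3 genome. In 65 members under 50% of windows were unique, and 15 of these were tested. In 78 members at least 99% were unique, of which 53 were tested. Of those 53, 20 rose (37.7%) and 28 fell (52.8%), beside 40.4% and 43.2% of all tested genes. Of the 26 members at 0 in every library, 18 had no unique window, 2 had few, and 5 were unique but wholly overlapped by another counted gene. That leaves SPAC922.06, annotated as a 3-oxoacyl-[acyl-carrier-protein] reductase, as the 1 member that was unique, overlapped by no other gene and still at 0. It is named here after its value was seen. Reads that aligned to more than 1 place are a row of their own in the deposited tables, so a level of a copied gene covers only reads over its own differences, and a copy at 0 may not be silent. Reads were nevertheless listed for 9 members without a unique window, and those levels are the most uncertain.

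**Figure D2:**
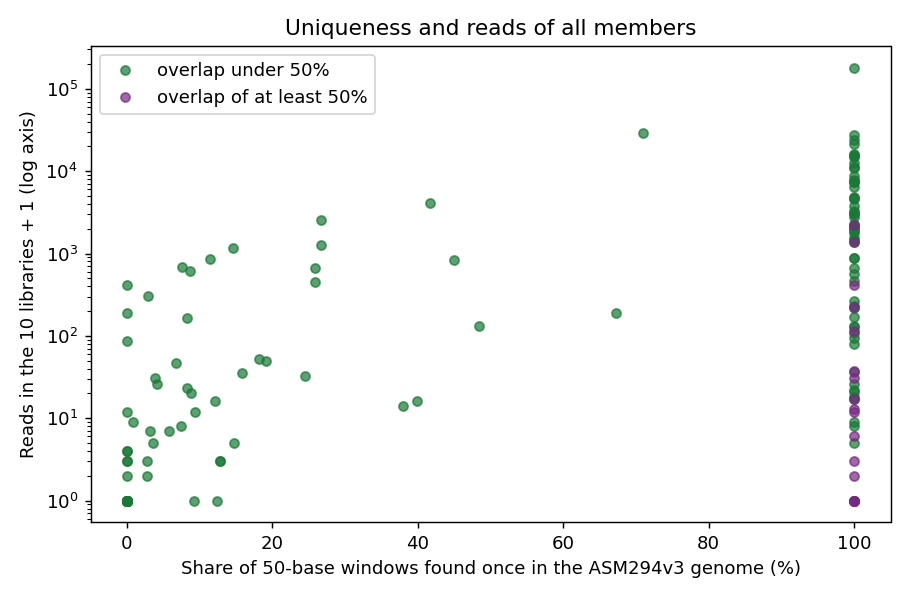
Each point is 1 of the 145 members, with the share of its 50-base windows found once in the ASM294v3 genome (x axis, %) and its reads summed over the 10 libraries plus 1 (y axis, log scale); purple points are overlapped by other genes over at least 50% of their length. No member under 50% had more than 4099 reads, and 20 of them were at 0.

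The helicase genes nearest the telomeres gave too few reads for a test. Tlh1, the first gene of the left end of chromosome I, had 7 reads in all controls together and 1 in the overexpression libraries, with 0.891% of its windows unique. Tlh2, the first gene of the right end of chromosome II, had 24 and 22 reads, with 6.76% unique. The helicase-like gene SPAC212.06c had 20 and 28. For tlh1 the ratio of control to overexpression was 5.60, with an exact 95% interval of 0.720 to 252, so no direction was detectable for it at this depth. For tlh2 and SPAC212.06c no test or interval was computed. Of the 39 members among the first 10 features of each end, 10 were tested. Of these, 7 rose and 2 fell, beside 40.4% higher and 43.2% lower of all tested genes. SPAC750.06c, ftm4, SPAC750.03c, SPAC750.01 and SPBC1348.05, with control means of 0.0158 to 0.783 CPM, could be tested only through high overexpression values. These shares thus rest on unlike selections. Among the 10 tested, levels rose in SPAC212.04c, uncharacterized, by 1.93 ± 0.16 (log2, SE), SPBCPT2R1.04c, also uncharacterized, by 1.65 ± 0.15, and the transporter gene SPBC1348.05 by 2.87 ± 0.24. Only 45.0%, 8.68% and 2.84% of their windows were unique.

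At the right end of chromosome I the first 6 tested members, from SPAC750.06c to SPAC186.02c, all rose. Of these, SPAC750.06c, ftm4, SPAC750.03c, gdt1 and SPAC750.01 had control means of 0.0158 to 0.783 CPM and could be tested only through high overexpression values. A fall in them would have gone untested. SPAC750.03c, annotated as a methyltransferase, had 0.598, 0.322, 0.382, 0.674 and 0.316 CPM in controls 1 to 5 and 33.0, 19.5, 23.4, 18.6 and 24.7 CPM in overexpression libraries 1 to 5, a log2 fold change of 5.61 ± 0.24. Ftm4, of a family of transmembrane-helix proteins, had 0.299, 0.322, 0, 0.300 and 0.237 CPM in controls and 11.5, 16.6, 14.5, 14.4 and 15.7 CPM in overexpression libraries, a rise of 5.96 ± 0.26. Gdt1, whose homologue in budding yeast moves calcium and manganese into the Golgi, had 0.299, 0.644, 0.305, 0.524 and 0.553 CPM and 28.1, 16.3, 16.2, 11.2 and 18.4 CPM, a rise of 5.31 ± 0.32. In all 3 genes every overexpression library was above every control. SPAC750.06c, uncharacterized, had 1 read in all controls and 162 with overexpression, 203 times as many after scaling (exact 95% interval 35.8 to 8046). That read was in control replicate 5, without which the fitted log2 value moved from 6.91 to 8.16. SPAC750.01, an aldo/keto reductase gene, rose by 1.91 ± 0.26, and SPAC186.02c, a hydroxyacid dehydrogenase gene, by 0.57 ± 0.13, or 0.22 and not past the test with library totals as the scale. Of these 6, gdt1 and SPAC186.02c are wholly unique, while 8.22%, 7.63%, 14.7% and 67.2% of the windows of SPAC750.06c, ftm4, SPAC750.03c and SPAC750.01 are.

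Copies of the same gene at other ends did not always carry such reads. Beside SPAC750.03c, the methyltransferase genes SPAC977.03 and SPBC1348.04 had 0 and 2, and 1 and 1 reads in the 2 groups. Only 12.85% and 0% of their windows were unique. Among the ftm genes ftm4 alone was tested. Ftm1 had 10 and 20 reads, ftm2 16 and 16, ftm3 0 and 3, ftm5 1 and 2, ftm6 7 and 0 and ftm7 2 and 0. Of their windows, 3.90%, 24.5%, 0%, 0%, 7.49% and 12.8% were unique, in the same order. Few reads in such a copy may not mean a low level, so these counts do not show that the copies differ. Aldo-keto reductase genes went apart: SPAC977.14c fell from 394 ± 24.5 to 132 ± 35.9 CPM (log2 fold change -1.58 ± 0.15), while SPAC750.01 rose from 0.783 ± 0.183 to 2.97 ± 0.845 CPM. The Vel1p-domain family, named after a budding yeast gene, had 2 tested members, which both fell. SPAC977.05c, with 11.5% of its windows unique, had 16.8, 9.50, 10.1, 13.3 and 16.3 CPM in controls 1 to 5 and 1.57, 0.635, 1.22, 1.02 and 0.851 CPM in overexpression libraries 1 to 5, a log2 fold change of -3.64 ± 0.24, and the groups did not overlap. Its copy SPBPB2B2.15 fell from 2.96 ± 0.666 to 0.148 ± 0.145 CPM, with no unique window. Near 0 with overexpression, SPBPB2B2.15 could be tested only through its controls. SPBC1348.06c, too low for the test and sharing all its windows with SPBPB2B2.15, so that their reads cannot be told apart, had 82 and 4 reads.

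**Figure D3:**
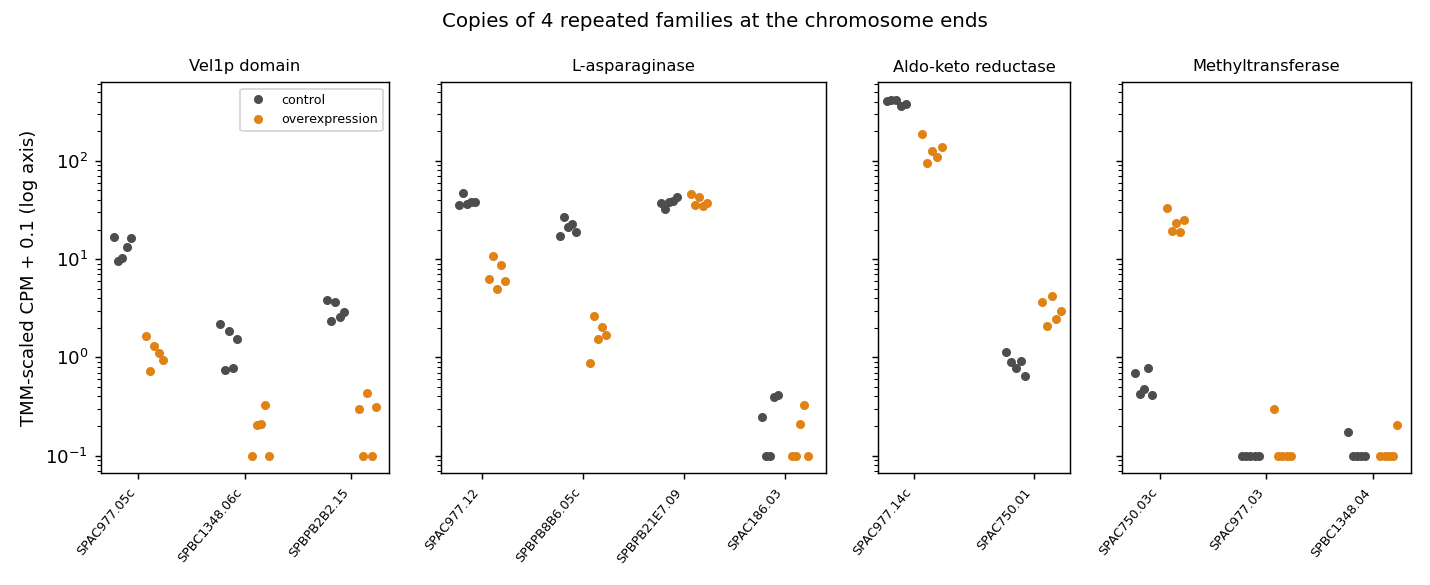
Level in each library (y axis, TMM-scaled CPM plus 0.1, log scale) of members of 4 copied gene families, 1 panel a family, with 1 point for each of the 5 controls (grey) and the 5 overexpression libraries (orange). Members of 1 family did not all move the same way: SPAC977.14c was lower and SPAC750.01 higher with overexpression, and SPBPB21E7.09 did not pass the test.

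Enzyme genes outside the oxidoreductases numbered 41, of which 26 were tested, 11 rose (42.3%) and 13 fell (50%), near the 40.4% and 43.2% of all tested genes. On the left end of chromosome II, 5 tested neighbours from eno102 to SPBPB21E7.06 all rose. Of these, eno102, SPBPB21E7.02c, SPBPB21E7.05 and SPBPB21E7.06 had control means of 0 to 0.108 CPM and could be tested only through high overexpression values. Cmt2 alone could have been called in either direction. SPBPB21E7.02c, of the phosphoglycerate mutase and 6-phosphofructo-2-kinase family, had 0.0748, 0, 0.229, 0 and 0.237 CPM in controls 1 to 5 and 26.3, 36.4, 31.0, 31.1 and 36.7 CPM in overexpression libraries 1 to 5, that is 7 and 1514 reads in all. Its fitted log2 fold change, 7.95 ± 0.26, was the highest of the tested members, and every overexpression library lay above every control. Eno102, annotated as an enolase, an enzyme of glycolysis, had 3 reads in all controls and 411 with overexpression, 171 times as many after scaling (exact 95% interval 58.2 to 834), with 79.2% of its length overlapped by other genes. Cmt2, a catechol O-methyltransferase gene, rose from 5.75 ± 1.52 to 225 ± 17.3 CPM (log2 fold change 5.30 ± 0.13). SPBPB21E7.05, uncharacterized, had 0 reads in controls and 107 in overexpression libraries, at least 44.6-fold higher taking 3 reads over the control group. The pseudogene SPBPB21E7.06 rose by 6.64 ± 0.34 on the log2 scale, or 7.44 without control replicate 5, from 5 reads in all controls to 453. Without control replicate 4 the fitted value of eno102 moved from 7.13 to 8.002. All 5 are wholly unique in 50-base windows.

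Next to them the direction changed. Aes1, annotated in the phenazine biosynthesis family, fell from 161 ± 4.78 to 37.9 ± 17.6 CPM (log2 fold change -2.08 ± 0.25), and SPBPB10D8.01, the cysteine transporter gene, fell furthest of all tested members. It had 57.6, 78.0, 67.2, 67.5 and 54.5 CPM in controls 1 to 5 and 1.08, 1.16, 1.44, 1.13 and 1.38 CPM in overexpression libraries 1 to 5, a log2 fold change of -5.70 ± 0.15. The lowest control was far above the highest overexpression library. Its neighbour SPBPB10D8.02c, an arylsulfatase gene overlapped over 80.7% of its length, fell from 1.77 ± 0.285 to 0.215 ± 0.208 CPM, a log2 value of -2.99 that was -3.63 without overexpression replicate 3, and the pseudogene SPBPB10D8.03 from 2.11 ± 0.291 to 0.128 ± 0.0916 CPM. SPBPB10D8.02c and SPBPB10D8.03, near 0 with overexpression, could be tested only through their controls. Copies of a transporter gene follow inward, SPBPB10D8.04c with 46 and 5 reads and the other 3 at 0, and none had a test.

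The galactose genes lie together on the right end of chromosome II and rose together. Gal1 encodes galactokinase, gal7 the uridylyltransferase and gal10 the epimerase of galactose use, and these cultures are not labelled as having received galactose. Gal1 had 7.55, 4.99, 7.25, 7.49 and 7.50 CPM in controls 1 to 5 and 40.5, 44.6, 37.3, 27.3 and 37.2 CPM in overexpression libraries 1 to 5, a rise of 2.39 ± 0.13. Gal7 had 30.8, 30.6, 29.3, 29.9 and 30.3 CPM and 361, 256, 273, 218 and 299.8 CPM, a rise of 3.22 ± 0.12. Gal10 had 0.0748, 0.161, 0.382, 0.524 and 0.158 CPM and 4.51, 5.61, 5.85, 3.05 and 3.30 CPM, a rise of 3.98 ± 0.36. The groups did not overlap in any of the 3 genes. With a control mean of 0.260 CPM, gal10 could be tested only through high overexpression values, and a fall in it would have gone untested. Gal10 is overlapped over 93.7% of its length and gal1 over 58.1%, so their levels cover only part of each gene. Tgd1, a nucleotide-sugar dehydratase gene of the same cluster, had 5 and 0 reads and is overlapped over 98.8%.

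Directly inward of gal7, 4 tested members fell. Pan5, a 2-dehydropantoate 2-reductase gene of pantothenate synthesis, fell from 68.0 ± 1.79 to 15.2 ± 2.28 CPM (log2 fold change -2.16 ± 0.09) and SPBPB2B2.08, uncharacterized, from 9.47 ± 1.42 to 0.380 ± 0.226 CPM. SPBPB2B2.08, near 0 with overexpression, could be tested only through its controls. SPBPB2B2.05, of the class I glutamine amidotransferase family, had 15.6, 12.7, 14.7, 12.4 and 13.4 CPM in controls 1 to 5 and 1.08, 1.90, 1.22, 1.35 and 1.17 CPM in overexpression libraries 1 to 5, a log2 fold change of -3.35 ± 0.15 with no overlap. SPBPB2B2.06c, annotated as a phosphoprotein phosphatase, fell by 2.26 on the log2 scale, with 118, 55.7, 53.1, 38.0 and 57.3 CPM in overexpression libraries 1 to 5, where library 1 stood highest. Say1, the sterol deacetylase gene, had a log2 fold change of 0.06 ± 0.26 (adjusted p = 0.837, edgeR), and its sign changed without control replicate 2, overexpression replicate 2 or overexpression replicate 5, to values of -0.06, -0.00 and -0.10. Nrg1, annotated as an amino-acid permease, fell from 17.1 ± 1.58 to 7.95 ± 1.88 CPM.

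**Figure D4:**
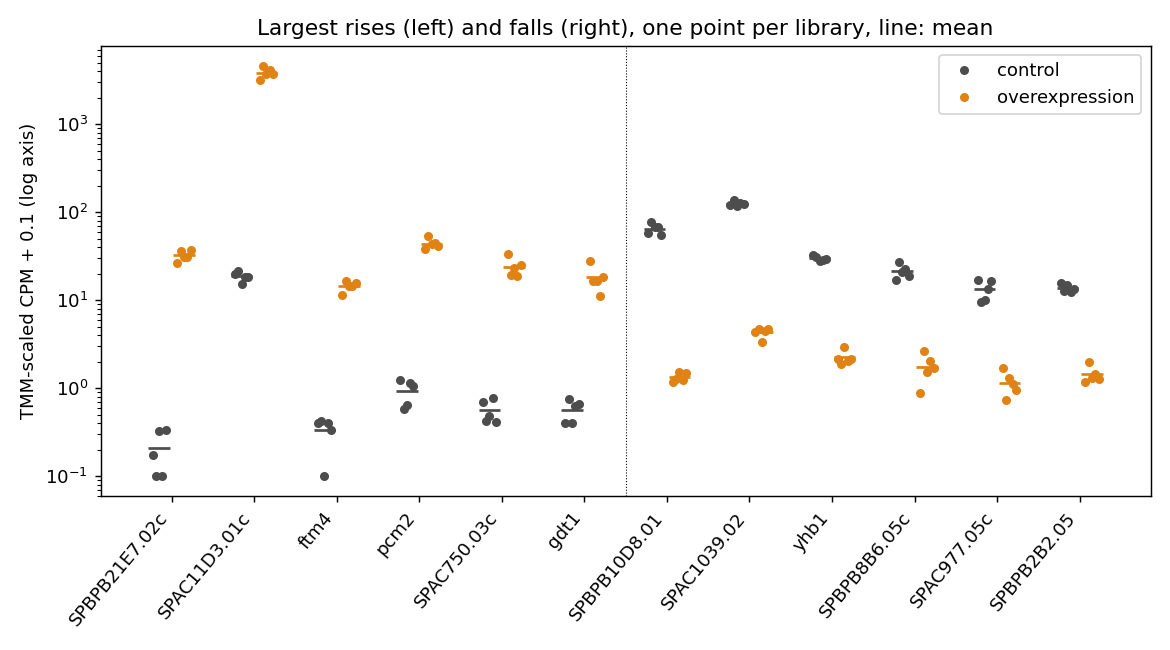
Level in each library (y axis, TMM-scaled CPM plus 0.1, log scale) of the 12 members with the largest rises (left) and falls (right) by the naming rule, with 1 point for each of the 5 controls (grey) and the 5 overexpression libraries (orange) and a line at each mean. The groups were apart in all 12 genes, from SPBPB21E7.02c, with a log2 fold change of 7.95, to SPBPB10D8.01, with -5.70.

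Asparaginase genes, whose enzymes release ammonium from asparagine, occur in 4 copies at the ends. SPBPB8B6.05c had 17.0, 26.7, 21.0, 22.5 and 18.9 CPM in controls 1 to 5 and 0.785, 2.54, 1.44, 1.92 and 1.60 CPM in overexpression libraries 1 to 5, a log2 fold change of -3.67 ± 0.20. SPAC977.12 fell from 39.0 ± 4.52 to 7.25 ± 2.38 CPM (log2 fold change -2.42 ± 0.16), and neither gene's groups overlapped. SPBPB21E7.09 had 37.7 ± 3.90 and 39.3 ± 4.73 CPM, a log2 fold change of 0.05 ± 0.09 (adjusted p = 0.603, edgeR). SPAC186.03 had 10 and 3 reads. Between 26.7% and 41.7% of their windows were unique. Genes for other amide-cleaving enzymes and for urea uptake had few reads: the amidase gene SPAC869.01 had 20 and 1, the urea transporter gene SPAC869.03c 16 and 0, SPBPB8B6.02c, also a urea transporter gene, 8 and 0, and the acetamidase gene fah1 2 and 0.

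Elsewhere on chromosome I the enzyme genes split. SPAC1039.02, annotated as a phosphoprotein phosphatase, had 120.4, 138, 118, 126 and 124 CPM in controls 1 to 5 and 4.22, 4.65, 3.20, 4.40 and 4.57 CPM in overexpression libraries 1 to 5, a log2 fold change of -4.89 ± 0.09. Pcm2, which encodes a methyltransferase that repairs damaged aspartyl residues in proteins, had 1.12, 0.483, 0.534, 1.05 and 0.948 CPM and 37.7, 53.1, 42.9, 44.0 and 41.1 CPM, a rise of 5.64 ± 0.17. In both genes the groups were far apart, in opposite directions. SPAC977.15, of the dienelactone hydrolase family, rose from 6.26 ± 0.728 to 52.0 ± 2.53 CPM (log2 fold change 3.05 ± 0.09), and hsp3104, a glyoxylase III gene, from 27.1 ± 1.00 to 126 ± 34.0 CPM (log2 fold change 2.21 ± 0.19). The SnoaL-like cyclase gene SPAC11D3.04c fell by 1.11 on the log2 scale, the nifs-family cysteine desulfurase gene SPAC11D3.10 by 0.25 and the esterase gene SPAC1039.03 by 0.58. SPAC11D3.10 no longer passed without control replicate 3 or overexpression replicate 2, 3 or 4, at -0.24 to -0.18. Mmf2, annotated in isoleucine synthesis, fell by 0.84, the deaminase gene SPAC922.03 by 0.35 and the serine ammonia-lyase gene SPAC1039.06 by 0.74, while the oxoprolinase gene SPAC11D3.15 rose by 0.45, or 0.10 and not past the test with library totals as the scale. Plb4, a phospholipase gene, was at 0 throughout.

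Of 12 oxidoreductase genes, 6 were tested, 2 rose and 4 fell, beside 40.4% and 43.2% of all tested genes. Yhb1, the nitric oxide dioxygenase that detoxifies nitric oxide, had 32.9, 31.1, 27.5, 28.8 and 29.5 CPM in controls 1 to 5 and 2.06, 1.80, 2.87, 1.92 and 2.02 CPM in overexpression libraries 1 to 5, a log2 fold change of -3.80 ± 0.12, and no library of 1 group reached the other. Atd2, an aldehyde dehydrogenase gene overlapped over 64.6%, fell from 15.7 ± 1.65 to 9.49 ± 1.53 CPM. Ayr2 was at 0, with no unique window.

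Transport genes numbered 22, of which 12 were tested, 4 rose and 8 fell, beside the 40.4% and 43.2% of all tested genes. SPAC977.17, of the MIP family that includes aquaporins and glycerol channels, rose from 16.3 ± 1.03 to 248 ± 41.1 CPM (log2 fold change 3.94 ± 0.11). The sulfate transporter gene sul2 fell from 254 ± 16.1 to 31.1 ± 8.99 CPM (log2 fold change -3.02 ± 0.15) and SPAC922.05c, a transporter gene, from 31.0 ± 1.94 to 5.20 ± 0.984 CPM (log2 fold change -2.56 ± 0.11). SPAC1039.04, a carboxylic acid transporter gene, fell from 42.7 ± 1.98 to 10.1 ± 1.30 CPM (log2 fold change -2.08 ± 0.09). In these 4 genes the groups did not overlap. The fluoride exporter genes fex1 and fex2 fell by 2.00 and 0.83 on the log2 scale, though only 25.9% and 25.8% of their windows were unique. Of the amino-acid permease genes, SPAC1039.01 fell by 1.19 and SPAC11D3.08c rose by 0.78. Mfs2, a transporter gene of the major facilitator superfamily, rose by 0.28 ± 0.10 (adjusted p = 0.0175, edgeR), with overlapping groups. With library totals as the scale its value was -0.07, and without control replicate 1 it no longer passed.

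Surface proteins of the DIPSY and GPI-anchored kinds sit in the cell wall. The 3 tested of 5 such members fell, beside 43.2% lower of all tested genes. Pfl9 had 4.71, 3.22, 3.89, 3.07 and 3.71 CPM in controls 1 to 5 and 0.0981, 0.212, 0.110, 0 and 0.213 CPM in overexpression libraries 1 to 5, so the overexpression values were below the limit that a count of 0 allows. SPAC212.08c fell by 0.75 on the log2 scale (adjusted p = 0.0404, edgeR) and SPAC212.12 by 0.78, both with overlapping groups and with 48.4% and 0% of windows unique. SPAC212.08c no longer passed with DESeq2, with the replicate number as a block, or without control replicate 1, 3 or 4 or overexpression replicate 2, 3 or 5, with values of -0.75 to -0.57 in those leave-outs. Pfl6 had 23 and 2 reads. Of 6 regulator genes 4 were tested, 2 rose and 2 fell, beside 40.4% and 43.2% of all tested genes. SPBC1348.12, a DNA-binding transcription factor gene, rose from 4.76 ± 0.496 to 32.0 ± 7.13 CPM (log2 fold change 2.74 ± 0.16) and toe4, overlapped over 44.3%, by 0.36 on the log2 scale, or 0.01 and not past the test with library totals. SPAC11D3.17 fell by 1.46 and klf1 by 0.57, both zinc-cluster factor genes. Grt1 had 16 and 0 reads, at least 4.27-fold lower taking 3 reads over the overexpression group, and is overlapped over 71.2%.

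The most abundant rise was in a gene of the Con-6 family, small proteins first described from conidia of filamentous fungi. SPAC11D3.01c had 20.0, 21.3, 15.3, 18.4 and 18.2 CPM in controls 1 to 5 and 3157, 4552, 3694, 4107 and 3691 CPM in overexpression libraries 1 to 5, a log2 fold change of 7.70 ± 0.14. The lowest overexpression library was far above the highest control. SPAC869.09, the other Con-6 member, was not tested: it had 0 reads in controls and 36 in overexpression libraries, at least 15-fold higher taking 3 reads over the control group, and is overlapped over 82.1%. With it, 4 of the 49 members with too few reads (8.16%) had groups that did not overlap, beside 11.9% of the 984 such features in all. The other 3, named after their values were seen, were the agmatinase gene SPAC11D3.09 with 20 and 58 reads, SPBC1348.06c, and SPBPB2B2.07c with 15 and 0. The remaining uncharacterized members included SPAC922.04, which fell by 0.90 on the log2 scale. SPBPB7E8.01 fell from 344 ± 19.9 to 74.8 ± 18.3 CPM (log2 fold change -2.20 ± 0.13) and SPBPB7E8.02, of the PSP1 family, by 0.78; both lie away from the end.

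Directions changed within each end. The left end of chromosome I had 22 tested members, 9 higher and 9 lower, and its runs held at most 3. The right end had 21, 7 higher and 14 lower: after the 6 outer rises, pfl9, yhb1 and sul2 fell, pcm2 rose, and the last 11, from atd2 to SPAC1039.01, fell. On chromosome II the left end had 14 tested members, 7 higher and 6 lower, and the right end 13, 4 higher and 8 lower, or 11, 4 higher and 6 lower, without the SPBPB7E8 clone. Of 39 pairs of tested neighbouring members that both passed, 27 moved in the same direction (69.2%), beside 1708 of 3222 other neighbouring pairs (53%). Gene pairs share members and no test of this difference was made. The runs from SPAC750.06c to SPAC186.02c and from eno102 to SPBPB21E7.06 held mostly members testable only through high overexpression values. SPBPB10D8.02c and SPBPB10D8.03, a pair that fell, could be tested only through their controls. Same-direction pairs of this kind follow in part from which members could be tested. By position, and without the SPBPB7E8 clone, 11 of 25 tested members at features 11 to 25 rose and 13 fell. At feature 26 and beyond 9 of 33 rose and 20 fell. Of all tested genes, 40.4% rose and 43.2% fell. At features 11 to 25, members such as gdt1, eno102, SPBPB21E7.02c, SPBPB21E7.05 and gal10 could be tested only through high overexpression values. Pfl9 and SPBPB2B2.15 could be tested only through their controls. The shares by position thus rest on unlike selections and show no trend by themselves.

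**Figure D5:**
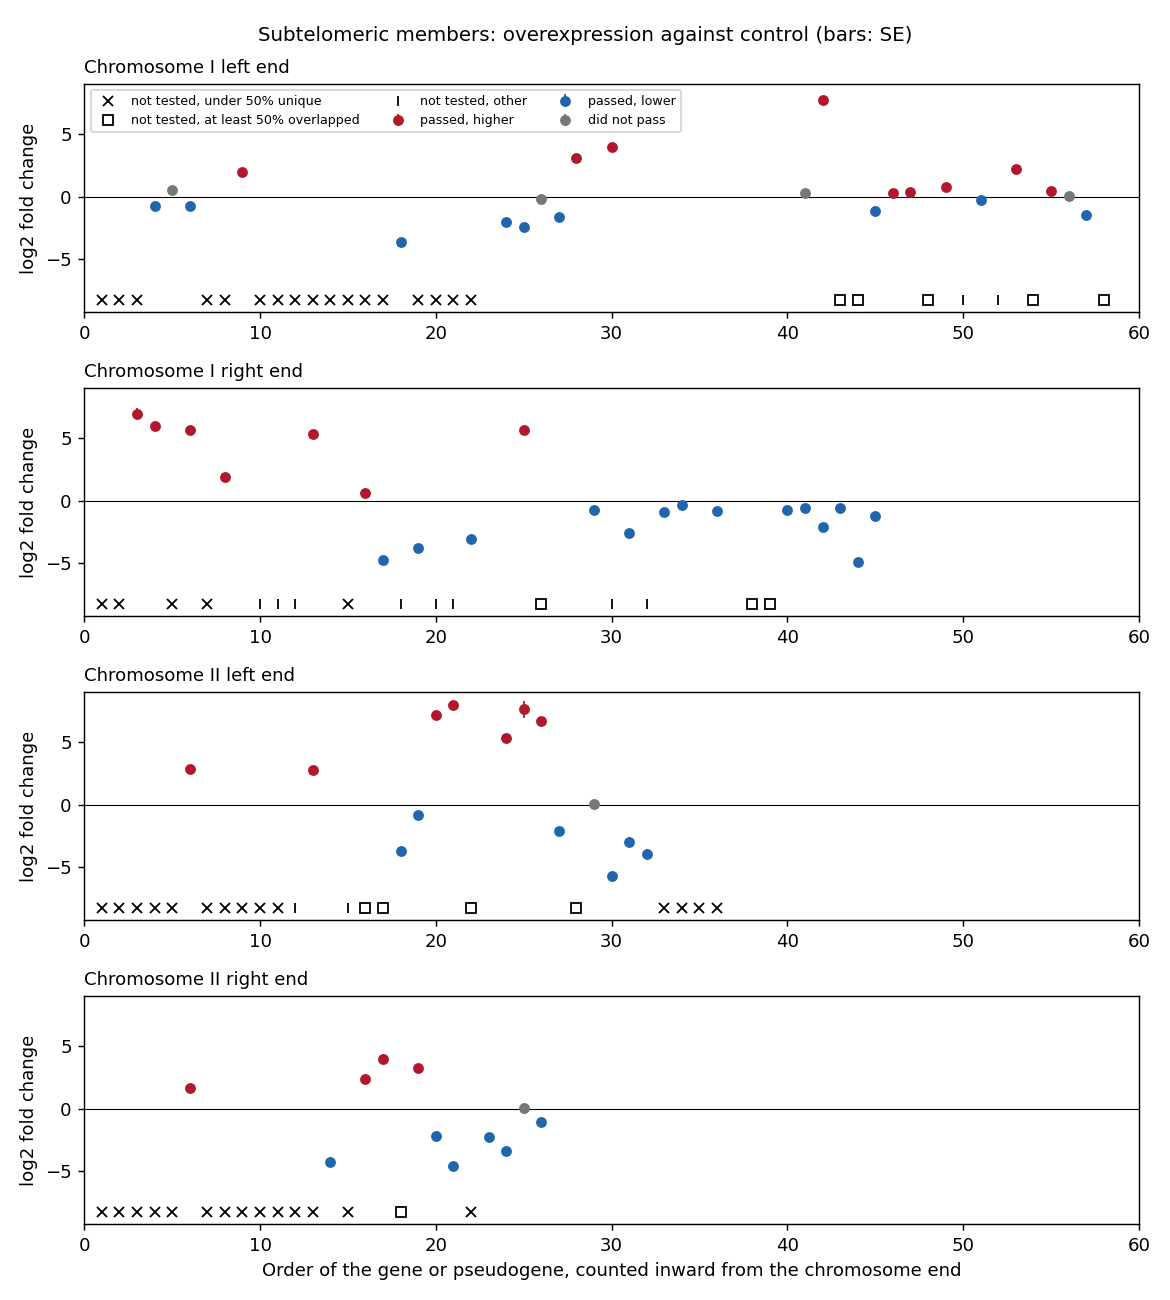
Log2 fold change of each tested member (y axis, overexpression over control) by its order from the chromosome end among protein-coding genes and pseudogenes (x axis), 1 panel an end. At the right end of chromosome I the first 6 tested members are above 0 and the last 11 below. Members near 0 in controls, among them most of those 6, could be tested only through high overexpression values. Crosses, squares and ticks at the foot mark members that were not tested, and SPBPB7E8, at features 429 and 430, is not drawn.

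The next 30 protein-coding genes inward of the innermost member at each end, 120 in all, gave a neighbouring region. Of these, 93 were tested, 35 rose (37.6%) and 45 fell (48.4%), beside 40.4% and 43.2% of all tested genes. A log2 fold change beyond 2 was reached by 13 (14.0%), beside 54.3% of tested members and 9.61% of all tested genes. Because SPBPB7E8 lies far inward, the region of the right end of chromosome II was taken again without that clone, a choice made after seeing its position. Then 100 of 120 were tested, 31 rose (31%), 58 fell (58%) and 17.0% were beyond 2, beside the same shares of all tested genes. Genes of the neighbouring region were tested more often than members, so the shares rest on unlike selections.

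Genes for factors of heterochromatin and telomeres had a median size of change, 0.666 on the log2 scale, near the 0.678 of all tested genes. The list held 50, among them epe1, leo1 and paf1, which oppose silencing, and had 41 tested, 15 higher (36.6%), 19 lower (46.3%) and 7 that did not pass, beside 40.4% and 43.2% of all tested genes, with a median of -0.09 on the log2 scale beside -0.03 for all. None was beyond 2. Of the 4 with the smallest p, bqt4, which anchors telomeres to the nuclear envelope, rose from 217 ± 1.43 to 553 ± 27.7 CPM, and rap1, a telomere-binding protein gene, from 46.4 ± 2.13 to 102 ± 3.89 CPM. The shelterin gene ccq1 rose from 100.2 ± 4.11 to 219 ± 16.3 CPM, and clr2, of the SHREC silencing complex, fell from 77.8 ± 3.83 to 32.0 ± 1.75 CPM. Swi6 fell by 0.70 on the log2 scale and clr4 rose by 0.57, named here after their values were seen, with clr4 overlapped over 54.2% of its length. As a check on cell state, a list of mating and meiosis genes had 16 matched and 12 tested. Of these, 5 were higher and 5 lower (41.7% each), beside 40.4% and 43.2% of all tested genes. Fus1, for cell fusion and overlapped over 70.0% of its length, rose by 1.46 and mei4, a meiotic transcription factor gene, by 0.54. The pheromone gene map2 fell by 1.37 and the meiotic inducer gene mei3 by 2.05. The part of any of these in the members' changes was not tested.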

How the data were processed

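Per the submitters' processing notes, reads were trimmed with Trimmomatic 0.32, aligned with STAR 2.3.0e and counted with HTSeq on build ASM294v2. The sources used here name no annotation release, strand setting or library kit. The authors deposited raw read counts per gene, 1 table a sample. The 5 rows that name no gene stayed out of library sizes and tests. The ambiguous share is given in the report, reads outside genes were 0.211% to 0.502% and multiply aligned reads 22.3% to 37.9% of listed reads.

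The deposited counts entered edgeR 4.0.16 (R 4.3.3), with filterByExpr, TMM factors, robust quasi-likelihood F-test of the 5 overexpression against the 5 control samples without covariates, Benjamini-Hochberg adjustment over 4681 genes, calls at 0.05. DESeq2 1.42.0, other scalings, filters and leaving out each sample were alternatives. P-values measure the spread between these samples. The code was tested on simulated data. Windows of 50 bases, overlaps on either strand, names and gene order came from ASM294v3. Exact intervals of read ratios are binomial at 95%. If counting ignored strand, reads of overlapping and antisense genes cannot be told apart.

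Members named with values were those that passed with a log2 fold change beyond 2 and a mean of at least 5 CPM, the 6 largest of each direction with every sample, the members that carry a gene name, and up to 4 called genes of each list with the smallest p. Others, such as further copies, neighbours and members outside that size, were named after their values were seen. Members and lists were chosen with earlier results of these data known. The planned search of promoters and proteins was not run, since no sequence of the authors' build was used here.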

Additional observations from a re-analysis of the deposited data

Results flagged for a closer look

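Of 139 groups of 5 libraries of tested members, 14 held 1 library far from the other 4 by Dixon's test, and chance flags about 1 in 20 groups. Overexpression replicate 1 stood out in 4 members. SPAC11D3.08c, which rose, had 95.1 CPM there and 73.7 to 77.4 CPM in the others. Of members that fell, sul2 had 46.7 CPM there and 24.9 to 30.8 CPM in the other overexpression libraries, SPBPB2B2.06c 118 CPM against 38.0 to 57.3 CPM, and SPBPB7E8.01 106.9 CPM against 61.0 to 69.4 CPM. Overexpression replicate 2 had 23.1 CPM of SPAC11D3.19 against 12.4 to 14.7 CPM, and 243 CPM of SPAC922.04 against 146 to 174 CPM. In yhb1, overexpression replicate 3 had 2.87 CPM against 1.80 to 2.06 CPM, and in mfs2, overexpression replicate 4 had 26.3 CPM against 33.2 to 34.7 CPM.

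Control replicate 2, the library with the fewest reads, stood apart in 3 members. It had 4.67 CPM of SPAC212.04c against 3.21 to 3.51 CPM in the other controls, 46.9 CPM of SPAC977.12 against 35.7 to 38.1 CPM, and 4.99 CPM of gal1 against 7.25 to 7.55 CPM. Control replicate 5 had 2.05 CPM of mmf2 against 3.06 to 3.45 CPM. Values at the limit of 1 or a few reads were also marked: SPAC750.06c had 0.0790 CPM in control replicate 5 and 0 in the other controls, and ftm4 had 0 in control replicate 3 and 0.237 to 0.322 CPM in the others.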

How the results depend on the processing

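Of the 70 tested members, 58 kept their direction and their side of the threshold under every one of 18 alternatives in which they were fitted. Over 1216 comparisons 12 reversed, 19 no longer passed and 6 newly passed, the last all SPAC212.07c. Library totals turned mfs2 to -0.07 and, of members that had not passed, say1 to -0.29, SPAC11D3.19 to -0.10, SPAC11D3.16c to -0.27 and SPBPB21E7.09 to -0.30. Upper-quartile factors turned say1 to -0.13, SPAC11D3.16c to -0.11 and SPBPB21E7.09 to -0.14, and left mfs2 at 0.09. Leaving out 1 library at a time, say1 ranged from -0.10 to 0.17, SPAC977.13c from -0.28 to 0.055, mfs2 from 0.21 to 0.35 and SPAC212.08c from -1.08 to -0.57.

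Members called numbered 27 higher and 36 lower with DESeq2, 23 and 38 with library totals, 31 and 48 with no filter, 20 and 28 with members at least 99% unique, and 27 to 29 and 35 to 37 leaving out 1 library. With a mean of at least 10 CPM, 15 were higher. Among genes that overlap no other gene, 949 of all genes were higher and 963 lower, 7 and 7 of the silencing list, and 16 and 19 of the next genes inward; these sets hold fewer genes. Library totals gave 21 higher among the next genes inward. They moved the median log2 fold change of all genes from -0.03 to -0.39, and upper-quartile factors to -0.22. The share of calls that were higher went from 48.4% to 33.0% of all called genes with library totals, and from 42.2% to 37.7% of called members.

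Replicate numbers did not pair the samples: deviations of same-numbered libraries correlated at -0.088 to 0.094. A fit with the replicate number as a block called 28 members higher and 36 lower, and 1879 and 2020 of all genes.

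Depth limits the 49 members that were not tested but had reads, 1 to 92 in all libraries together; 18 of them lay in the first 10 features of an end. Copied and overlapped genes are uncertain at any depth.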
